A study of Mus musculus with 4 samples.

Results

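The neurotrophins that innervate the cochlea and their receptors were described in whole cochleas of E15 mouse embryos, either wild type or labeled Meis2 ko. The list holds 6 genes, the ligands *Bdnf* and *Ntf3* and the receptors *Ntrk2*, *Ntrk3*, *Ngfr* and *Sort1*, and its members are all probe sets of the deposited table whose single platform symbol is one of these. Each of 5 genes was read by 1 probe set, against 19936 genes and 35556 probe sets in the whole table. No probe set carries *Ntf3* as its single symbol in the platform annotation used here, so *Ntf3* was not analysed. Probe sets with several symbols were not searched for it. According to the study's methods the mutants were Meis2 flox/flox; Pax2 Cre/+ embryos, in which Cre is driven by *Pax2* regulatory sequences and is active in the otic placode and vesicle, so tissue of the cochlea that does not descend from these cells keeps *Meis2*. There were 2 wild-type arrays (replicates 2 and 3) and 2 mutant arrays (replicates 1 and 2), all Mouse Gene ST arrays from Affymetrix. The labels do not give the number of embryos behind a sample, and the Cre or floxed alleles of the wild-type embryos are not stated. Nothing says that the samples of a group came from separate embryos, so the p-values measure only the spread between these arrays.

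Neurotrophins are secreted growth factors that keep developing sensory neurons alive and guide their fibers. In the inner ear, BDNF and NT-3 are made in the sensory epithelium and bind the tyrosine kinase receptors TrkB (*Ntrk2*) and TrkC (*Ntrk3*) on ganglion neurons, and mice without NT-3 lose most neurons of the cochlea. The receptor p75 (*Ngfr*) binds all neurotrophins, and together with sortilin (*Sort1*) it binds their uncleaved precursors.

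*Bdnf* is transcribed from several starts that join separate first exons to a shared coding exon, and the upstream sequence of one start is shown because it holds both motifs that Meis proteins are known to use. Those motifs are TGACAG, bound directly, and TGATNNAT, bound with Pbx and Hox partners. They were searched on both strands in the 250 bases before each start in the promoter table from RefSeq (build GRCm38.p6), where 15.9% of 32851 windows held TGACAG and 7.68% held TGATNNAT. The table lists 11 windows for these genes, with 7 for *Bdnf*, 2 for *Ntf3*, 1 each for *Ntrk2* and *Ngfr*, and none matched for *Ntrk3* and *Sort1*. Of the 11 windows, 2 held either motif and both belong to *Bdnf*, which has 7 of the 11. TGACAG was in 1 of the 11 windows and TGATNNAT in 2. The share of all windows with either motif was not counted, and an excess over all windows was not tested. The window of *Bdnf* at chr2:109692186-109692435 (plus strand) held TGACAG with its first base 227 and 45 bases before the start and TGATNNAT on the opposite strand at 128 bases, with no overlap between the matches. The window of *Ngfr* at chr11:95587699-95587948 (minus strand) is shown beside it as one with neither motif. Both are written from 5′ to 3′ on the strand of the gene, with the matches in capitals.
*Bdnf*: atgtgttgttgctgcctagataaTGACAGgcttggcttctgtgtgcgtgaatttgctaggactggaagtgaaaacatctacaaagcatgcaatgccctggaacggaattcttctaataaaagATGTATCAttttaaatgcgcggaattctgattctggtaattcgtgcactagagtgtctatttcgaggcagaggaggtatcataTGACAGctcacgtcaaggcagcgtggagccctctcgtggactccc
*Ngfr*: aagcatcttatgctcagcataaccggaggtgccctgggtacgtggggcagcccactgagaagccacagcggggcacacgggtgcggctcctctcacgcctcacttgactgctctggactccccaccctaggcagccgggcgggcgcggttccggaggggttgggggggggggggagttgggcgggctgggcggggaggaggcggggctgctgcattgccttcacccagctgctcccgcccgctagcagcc
A match is a description of letters in a window, and binding of Meis2 at these sequences was not analysed here. The *Bdnf* probe set gives 1 value for the gene, so the starts were not told apart on these arrays.

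The values are signals on the log2 scale from the RMA algorithm, and a difference is the mutant mean minus the wild-type mean on that scale. The median signal of an array lay between 6.63 and 6.73. Markers of the labeled tissue were present. *Col2a1* of the otic capsule was at 12.61 and 12.51 in wild type and at 12.91 and 13.05 in mutants, a difference of 0.41. *Sox2* of the prosensory domain was at 9.75 and 9.83 in wild type and at 7.57 and 8.13 in mutants, a difference of -1.94. *Coch* was at 9.18 and 9.64 in wild type and at 8.21 and 8.42 in mutants, a difference of -1.09. Of 12 measured central nervous system markers, hindbrain included, 10 were below the array medians on all 4 arrays. The targeted gene, *Meis2*, was at 9.64 and 9.38 in wild type and at 9.61 and 9.80 in mutants. Whether this probe set covers the deleted exons is not known, and these values therefore are no test of the labels. Wild-type replicate 2 stood apart in *Xist*, at 5.54 against 11.51 to 11.84 on the other 3 arrays. The Y-linked gene *Eif2s3y* was at 8.76 and 7.77 in wild type and at 4.68 and 4.88 in mutants, so the sexes were not balanced between the groups. Wild-type replicate 3 was high in both genes, as a sample with RNA of both sexes would be. None of the 5 measured genes lies on a sex chromosome, but this does not remove an effect of sex. Effects of sex and of genotype cannot be told apart on these arrays, for these genes and for those of the lists.

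None of the 5 measured genes passed the test between mutant and wild-type cochleas. In limma, a linear model fitted across all 35556 probe sets with Benjamini-Hochberg adjustment, 0 of 5 passed an adjusted p of 0.05, and 0 passed an unadjusted p of 0.05. Of all probe sets, 37.3% passed the adjusted threshold, 21.6% higher and 15.7% lower in mutants, and 50.0% passed the unadjusted one. All 5 differences were above 0 (63.6% of all probe sets), from 0.07 to 0.23, with a median of 0.12 beside a median of 0.11 over all probe sets. The 95% confidence intervals, taken gene by gene, lay between 0.894-fold and 1.39-fold, short of 2-fold on these arrays. A larger change between genotypes is not excluded, since separate embryos are not stated and the sexes were not balanced. For *Bdnf*, below the median signal of every array, the share of background was not measured. Its interval therefore sets no limit on the change of the transcript. A p that misses the threshold does not show equal expression. In whole cochleas, fewer cells of a type and less RNA per cell cannot be told apart.

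**Figure D1:**
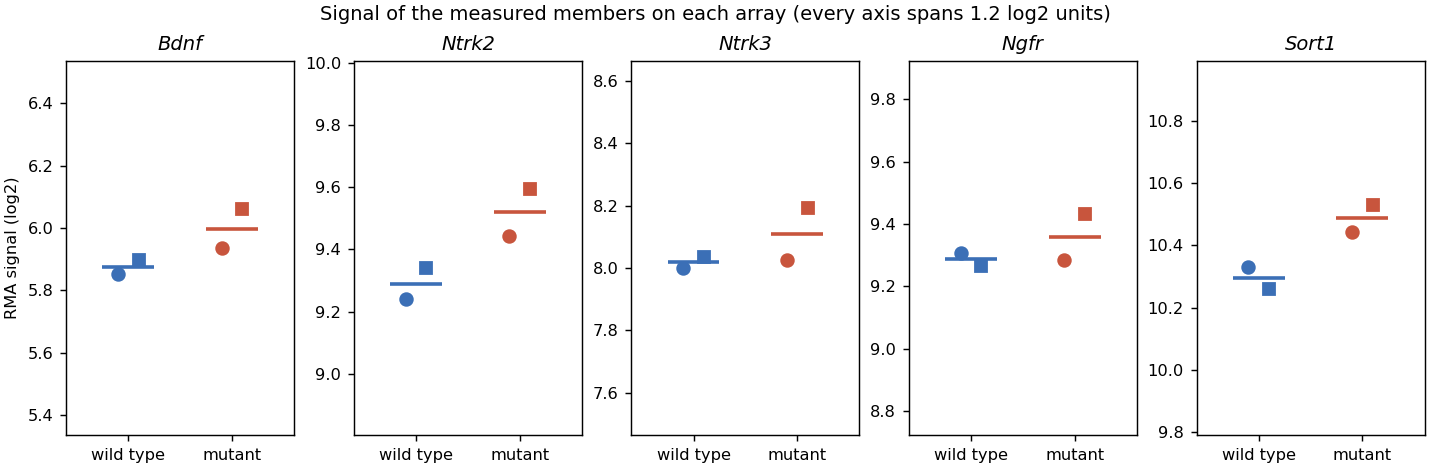
Signal (y axis, log2) of the 5 measured genes on each array, by genotype (x axis); points are single arrays, circles the lower and squares the higher replicate number of a group, and lines are group means. The mutant means lie 0.07 to 0.23 above the wild-type means, and mutant replicate 2 is the highest array in all 5 panels.

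Of the ligands, *Bdnf* was at 5.85 and 5.90 in wild type and at 5.93 and 6.06 in mutants. Both mutant arrays lay above both wild-type arrays, by 0.04 at the narrowest, which is less than the 0.13 between the mutant arrays. The mutant mean was higher by 0.12 ± 0.09 (SE), with an interval of -0.10 to 0.35 at 95% confidence, and limma gave an adjusted p of 0.305. The direction turned to -0.024 after quantile normalization was repeated. The signal of *Bdnf* was below the median signal of every array, and RMA values carry no detection call, so how much of it is background was not measured.

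Of the Trk receptors, *Ntrk2* was at 9.24 and 9.34 in wild-type and at 9.44 and 9.59 in mutant cochleas. The groups did not overlap, and the gap between them, 0.10, was about the distance between the wild-type arrays, 0.10, and less than that between the mutant arrays, 0.15. The difference of 0.23 was the largest of the 5 genes at 1.17-fold (SE 0.10, adjusted p = 0.119 in limma), and its interval at 95% confidence ran from -0.02 to 0.47. *Ntrk2* is also made as a truncated receptor without the kinase, which this single value does not separate from the full-length form. *Ntrk3* was at 8.00 and 8.04 in wild type and at 8.03 and 8.19 in mutants, so the groups overlapped. Its mean was higher in mutants by 0.09 ± 0.09 (SE; adjusted p = 0.467 in limma), with bounds of -0.15 and 0.33 at 95% confidence.

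*Ngfr*, the p75 receptor, was at 9.31 and 9.27 in wild-type cochleas and at 9.29 and 9.43 in mutants. The groups overlapped, since mutant replicate 1 lay between the wild-type arrays. The mutant mean was higher by 0.07 ± 0.09 (SE; adjusted p = 0.545 in limma), the smallest of the 5 differences, with bounds of -0.16 and 0.31 at 95% confidence. After median scaling it was -0.011. *Sort1*, the sorting receptor that joins p75, was at 10.33 and 10.26 in wild type and at 10.44 and 10.53 in mutants. Both mutant arrays were above both wild-type arrays, and the gap of 0.11 was larger than the 0.07 and 0.09 between arrays of a group. The means differed by 0.19 ± 0.08 (SE; adjusted p = 0.135 in limma), with bounds of -0.03 and 0.41 at 95% confidence.

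The groups did not overlap for 3 of the 5 genes, *Bdnf*, *Ntrk2* and *Sort1*, which were higher on both mutant arrays. Of all probe sets, 49.7% were higher in mutants without overlap (76.1% in either direction), so this count is near the background. Significance analysis of microarrays (SAM), named in the study's methods, was run here in a version written for this work. It called the same 3 genes higher, along with 50.0% of all probe sets, and 75.8% of probe sets in either direction. The paper reports most of its differentially expressed transcripts as downregulated in mutants, so this run does not stand for the study's own result. The relabelings of 4 arrays in SAM number only 6. The differences of all 5 measured genes were below the median absolute difference of all probe sets, 0.28. A smaller absolute difference was shown by 42.3% of probe sets for *Ntrk2*, the largest of the 5, and by 14.0% for *Ngfr*, the smallest. The 5 genes are not independent of each other within an array, and mutant replicate 2 had the highest signal for all 5.

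Whether both Trk receptors changed alike was read from the difference of their log2 signals within each array, in which scaling by an array's median cancels. *Ntrk2* minus *Ntrk3* was 1.24 and 1.30 in wild type and 1.42 and 1.40 in mutants. The mutant values were higher by 0.14 (standard error 0.03), and without an array by 0.11 to 0.17. *Ntrk2* minus *Ngfr* was -0.06 and 0.07 in wild type and 0.16 on both mutant arrays, a change of 0.15 (standard error 0.07), which was 0.09 to 0.22 without an array. In both comparisons the groups did not overlap, and the exact two-sided permutation p was 0.333, the smallest that 2 arrays against 2 allow (also 0.333 after Benjamini-Hochberg adjustment over these 2 comparisons). The same comparison of *Bdnf* with *Ntf3* was not made, as *Ntf3* was not analysed.

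**Figure D2:**
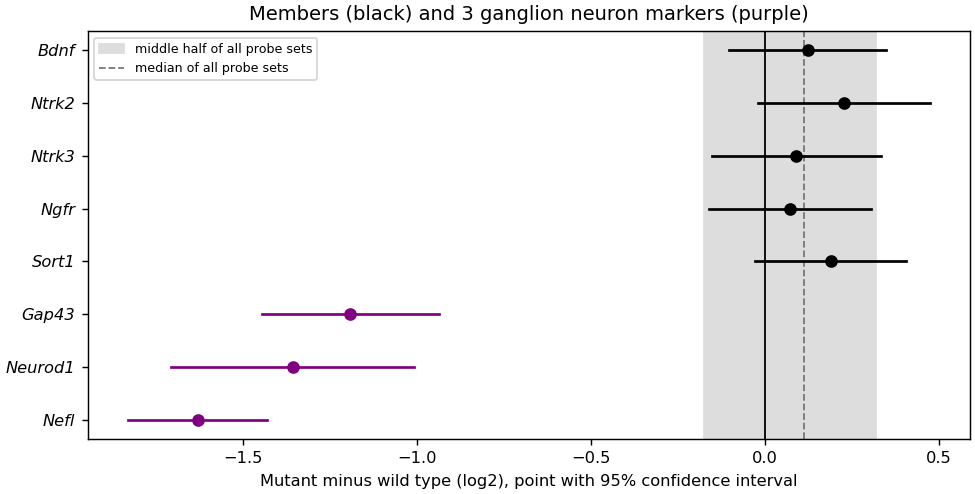
Difference between mutant and wild-type cochleas (x axis, log2) with 95% confidence intervals from limma for the 5 measured genes (black) and the 3 ganglion neuron markers with the smallest p (purple); the grey band spans the quartiles of all probe sets. The intervals of the 5 genes cross 0, whereas *Nefl*, *Neurod1* and *Gap43* lie between -1.63 and -1.19.

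TrkB and TrkC are receptors of ganglion neurons, and some markers of these cells were lower in mutants on the same arrays. Of 20 spiral ganglion neuron markers, 7 were lower, 0 were higher and 13 did not pass the test, with a median difference of -0.18 (0.13 over all genes, of which 40.4% passed, 24.2% higher and 16.2% lower). The 7 became 3 without mutant replicate 2, and these 3 passed in every limma alternative. *Nefl*, the light neurofilament chain, was at 11.83 and 11.86 in wild type and at 10.22 and 10.20 in mutants and fell by 1.63. *Gap43*, a growth cone protein, fell by 1.19 and *Neurod1*, a transcription factor of young neurons, fell by 1.36 (adjusted p = 0.00244, 0.00329 and 0.00428 from limma). *Tubb3*, the neuronal tubulin, and the synaptic protein *Syt1* did not pass, with differences of 0.04 and 0.00. For *Ina*, a neuronal filament gene with 2 probe sets of near-equal signal, the one used gave -0.07 and did not pass, and the other rose by 1.46. Of 9 Schwann and satellite glia markers, a cell type in which *Ngfr* is also known, 4 were lower and 1 was higher, among them *Fabp7*, which fell by 1.45, and *Sox10*, which rose by 0.46 and passed in 5 of 10 alternatives of limma (adjusted p = 0.0544 after median scaling).

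**Figure D3:**
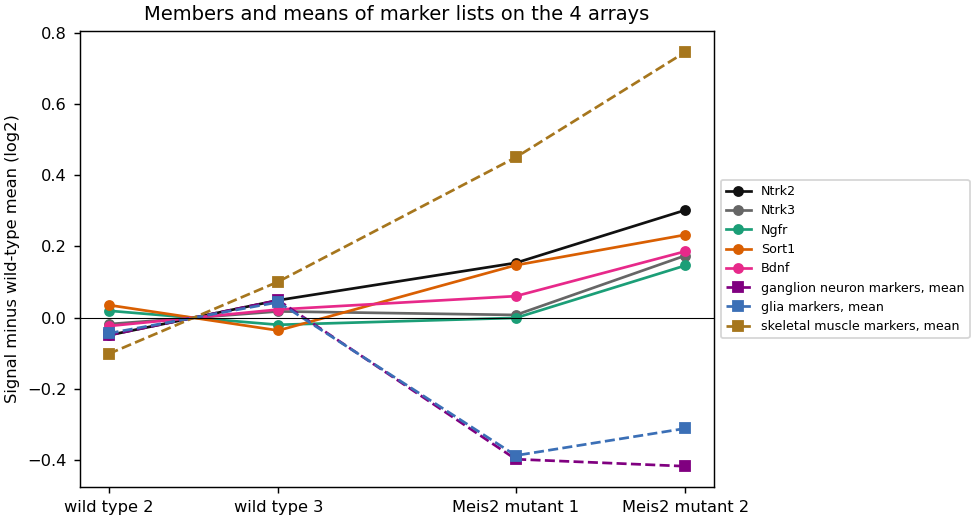
Signal on each array minus the wild-type mean (y axis, log2) for the 5 measured genes (solid) and the mean of the ganglion neuron, glia and skeletal muscle marker lists (dashed); lines only join the points of 1 gene or list. On the mutant arrays the 5 genes stay between 0.00 and 0.30, the neuron and glia means lie below -0.30 and the muscle mean lies above 0.40.

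Set against the mean log2 signal of the 20 neuron markers on the same array, *Ntrk2* was higher in mutants by 0.63 (standard error 0.08), *Sort1* by 0.60 (standard error 0.10), *Ntrk3* by 0.50 (standard error 0.10) and *Ngfr* by 0.48 (standard error 0.11). These 4 values lay between 0.40 and 0.72 without any one array. Against the mean of the 9 glia markers they were 0.58, 0.54, 0.44 and 0.42 in the same order. This reference was chosen after the data were seen, and the values carry no test. A list mean also leans on the few genes with large falls, such as *Nefl*, *Neurod1* and *Gap43* in the neuron list. The median difference was only -0.18 for the neuron list and -0.17 for the glia list, and 13 of the 20 neuron markers did not pass. Whether the receptors were kept relative to the neurons or glia as a whole was not tested. The mean of the neuron list was 8.35 and 8.45 in wild type and 8.00 and 7.99 in mutants, and that of the glia list was 9.49 and 9.58 against 9.15 and 9.22. Of 13 skeletal muscle markers, 10 were higher and none lower in mutants (mean 6.09 and 6.29 against 6.64 and 6.93). The 10 became 1 without wild-type replicate 2, 2 and 5 without mutant replicate 2 or 1, 6 with quantile normalization repeated and 4 with median scaling. Their part in the values of the receptors was not tested.

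Other genes of the pathway were taken from lists of ligands, processing enzymes, receptor partners, adaptors, signaling arms, targets and regulators. Of 138 measured genes in these lists, 49 were higher and 26 lower in mutants (33 and 28 after median scaling), which is 54.3%, beside 40.4% of all genes. Their median difference was 0.14. Without a mutant array the counts dropped to 18 higher and 11 lower (without replicate 1) and to 17 and 11 (without replicate 2). Unless stated, the genes named from these lists stayed past the threshold in all 10 alternatives of limma.

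Among the ligands, *Ntf5*, which encodes NT-4, another ligand of TrkB, was at 5.49 and 5.64 in wild type and at 5.84 and 5.71 in mutants, and its difference of 0.21 did not pass (adjusted p = 0.159 from limma). Of 11 genes that process proneurotrophins, 3 were higher and 2 lower (2 and 1 in every limma alternative). *Furin*, a protease that cleaves the precursors, rose by 0.96 and *Pcsk6*, a related convertase, rose by 0.66 (adjusted p = 0.00468 and 0.00589 from limma), while *Serpini1*, an inhibitor of the protease tPA, fell by 1.18 (adjusted p = 0.0033 from limma).

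Of 20 genes of the sortilin family and of p75 partners, 7 were higher and 6 lower, with a median of 0.06 that turned to -0.019 after median scaling. The count of lower genes was 3 after repeated quantile normalization, 2 without wild-type replicate 3, 1 without mutant replicate 1 and 0 without mutant replicate 2, and 0 of the 6 passed in every limma alternative. The relatives of *Sort1* are given in full, a choice made after their values were seen. *Sorl1* rose by 0.81 (adjusted p = 0.00505 from limma) and *Sorcs2* by 0.58 (adjusted p = 0.0117 from limma, and 0.0684 without mutant replicate 2). *Sorcs1* fell by 0.54 (adjusted p = 0.0282 from limma, with 0.106 and 0.118 without mutant replicate 1 or 2 and 0.0573 after repeated quantile normalization), and *Sorcs3* had a difference of 0.13 that did not pass. *Aph1a*, a subunit of the secretase that cuts p75 within the membrane, rose by 1.08, and both of its probe sets were higher.

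Of 31 Trk adaptors and regulators, 11 were higher and 7 lower, of which 2 and 4 passed in every limma alternative. *Sh2b1*, an adaptor that binds activated Trk receptors, rose by 0.90 and *Cbl*, a ubiquitin ligase of receptor kinases, rose by 0.80, whereas the adaptor *Crk* fell by 0.79 and *Rasa1*, a brake on Ras, fell by 0.84 (adjusted p = 0.00373 to 0.00603 from limma). Of 20 genes of the Ras-MAPK and PI3K-Akt arms, 7 were higher and 4 lower (1 and 2 in every limma alternative), with *Rap1a*, a GTPase that feeds the MAPK arm, at the largest change of this list, a fall of 1.84. *Rps6ka3*, a kinase downstream of MAPK, fell by 0.75, and *Foxo3*, a transcription factor held back by Akt, rose by 1.04. Of 18 genes known to be induced by neurotrophins, 6 were higher and 2 lower, with a median of -0.02. Without wild-type replicate 2 the counts were 3 higher and 4 lower, and without either mutant replicate 2 higher and 1 lower. *Spry4*, a feedback inhibitor, rose by 0.76, and *Mef2d* rose by 1.03 at its brighter probe set, where its other probe set gave -0.22 and did not pass.

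Of 21 other trophic factors and receptors of neurons, 11 were higher and 1 lower, with a median of 0.32. After median scaling 6 were higher, with a median of 0.24, and without mutant replicate 1 or 2 there were 4. Of the 11, 3 passed in every limma alternative. *Nrtn*, a ligand of the GDNF family, was at 7.27 and 7.42 in wild type and at 8.23 and 8.29 in mutants and rose by 0.92. *Cntfr*, the receptor of ciliary neurotrophic factor, rose by 0.82 (adjusted p = 0.00423 and 0.00539 from limma). Of 16 transcription factors known to control Trk or ligand genes, 4 were higher and 4 lower, with 2 of each in every limma alternative. *Runx1* and *Runx3*, which pattern Trk expression in dorsal root ganglia, rose by 1.27 and 0.89. *Neurod1*, needed for Trk expression in neurons of the ear, fell as given above, and *Usf1* fell by 0.73 (adjusted p = 0.00527 from limma). *Isl1*, also in the list of ganglion neuron markers, fell by 0.69 (adjusted p = 0.0108 from limma) but passed in only 8 of 10 alternatives of limma. That these genes passed the test and the 5 neurotrophin genes did not was not tested as a difference between them.

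**Figure D4:**
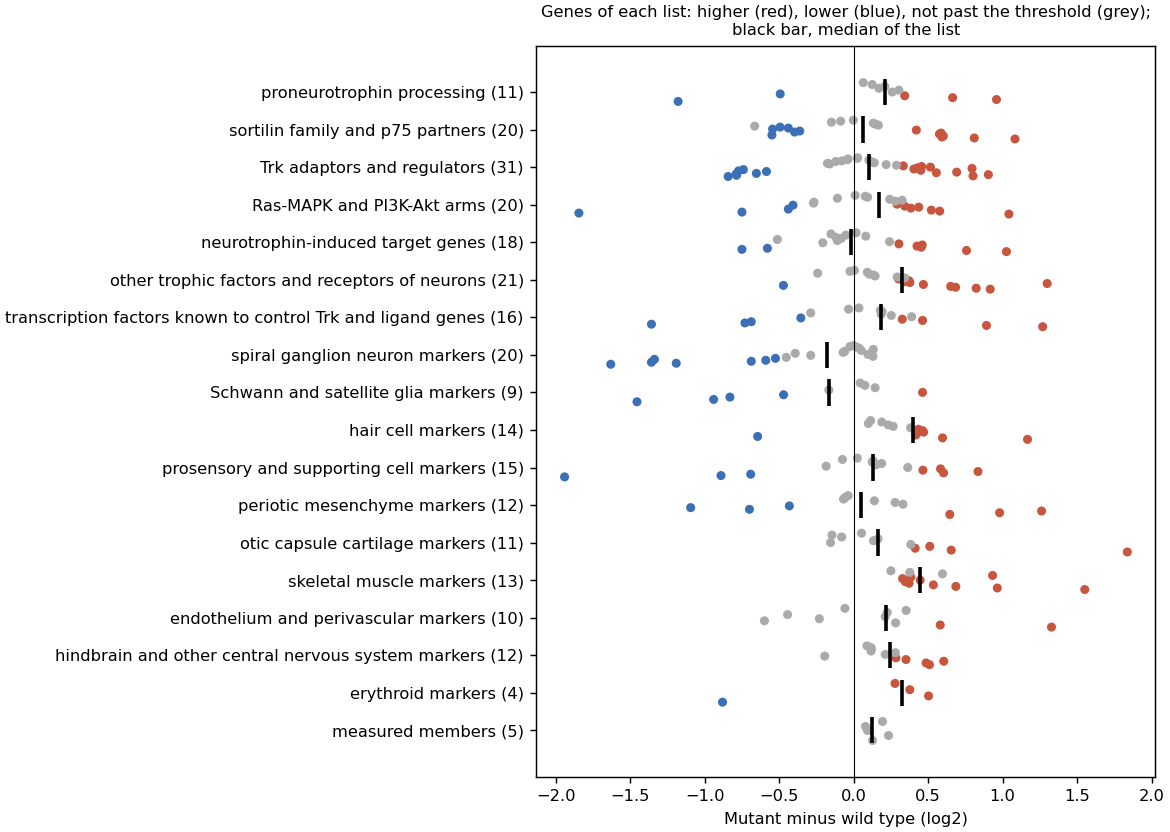
Difference between mutant and wild-type cochleas (x axis, log2) of each measured gene in the pathway and marker lists (y axis, number measured in parentheses) and of the 5 measured genes (lowest row); red and blue points passed limma as higher and lower, grey points did not, and bars are medians. The 5 points of the lowest row are grey and lie within 0.07 to 0.23, while the other lists span from -1.94 to 1.84.

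The genes of these lists whose pattern over the 4 arrays was closest to each receptor or ligand were found by the Euclidean distance between gene-centered log2 values, among 252 genes. The closest to *Ntrk2* was *Map2k1*, a kinase of the MAPK arm, at a distance of 0.03, and to *Sort1* it was *Cdh5*, an endothelial cadherin, at 0.04. For *Ntrk3* it was *Slc17a8* and for *Ngfr* it was *Prox1*, at 0.05 each, and for *Bdnf* it was *Olig2* at 0.04. None of these 5 genes passed the test (adjusted p = 0.0872 to 0.843 from limma), and with 4 arrays such a likeness is a description only.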

How the data were processed

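RNA of whole E15 cochleas was hybridized to 4 Mouse Gene ST arrays, 2 per genotype. The authors deposited 1 log2 value for each probe set and array, made with RMA (background correction, quantile normalization and summary of the probes). RMA and the build mm8 come from the submitters' processing notes, and coordinates of probe sets are not printed. The scanner files were not used here.

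Probe sets were named through the platform annotation, with 21789 of 35556 carrying 1 symbol, and symbols were updated through RefSeq (GRCm38.p6) for 21701 of these. For a gene with several probe sets, the one with the highest mean over all 4 arrays was used. Groups were compared with limma 3.58.1 in R 4.3.3 (lmFit and eBayes, no covariate, no filter, Benjamini-Hochberg over all probe sets, threshold 0.05), with 2 residual and 2.91 prior degrees of freedom. The number of arrays limits the precision. The study's methods name SAM, which was run as an alternative, written for this work and ending at a delta of 0.18. Between arrays, Pearson's r across probe sets (no independent replicates) was 0.993 in wild type, 0.996 in mutants and 0.966 to 0.971 between genotypes. Permutation tests used scipy 1.17.1. The code was tested on simulated data.

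The genes and lists were chosen with earlier results of these data known. Named genes are the 6 neurotrophin and receptor genes, *Meis2*, examples from the 4 genes of each pathway list and the 2 of each marker list with the smallest unadjusted p, and the closest patterns. Others are named to show a list that did not change, or for the tissue and sex of the samples. *Isl1*, *Sox10*, *Ina*, *Nefm*, *Sorcs1*, *Sorcs2* and *Sorcs3* fall outside these rules, and their choice was not set in advance. The lists of periotic mesenchyme (3 higher and 3 lower of 12), hair cells (7 and 1 of 14), prosensory and supporting cells (4 and 3 of 15), cartilage (4 and 0 of 11), endothelium (2 and 0 of 10), central nervous system (5 and 0 of 12) and erythroid cells (3 and 1 of 4) are not described further, and these counts move when an array is left out. Alternatives were SAM, leaving out each array, repeated quantile normalization, median scaling, a trended prior, dropping the dimmest 25% of probe sets, keeping only probe sets with 1 symbol, and averaging a gene's probe sets. The comparison with marker means was added after the data were seen.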

Additional observations from a re-analysis of the deposited data

How the results depend on the processing

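Over 10 alternatives of limma, the 5 measured neurotrophin and receptor genes gave 50 values, of which 0 passed the adjusted threshold (lowest adjusted p = 0.0675, for *Ntrk2* after repeated quantile normalization) and 47 were above 0. The 3 below 0 were *Ngfr* after median scaling (-0.011) and without *Meis2* mutant replicate 2 (-0.00042), and *Bdnf* after repeated quantile normalization (-0.024). The cause was not tested. SAM called 26962 probe sets, 75.8 percent of all, and 50 percent of all probe sets were called higher by it. Beside this share, it called 78 of 138 pathway genes as higher. Of the 5 genes it called 3 as higher, *Bdnf* (0.12), *Ntrk2* (0.23) and *Sort1* (0.19). Without an array, the probe sets past the threshold numbered 4611 to 10895 (13268 with all arrays), pathway genes 17 to 35 higher and 11 to 27 lower, *Ngfr* differed by -0.00042 to 0.15, *Ntrk2* by 0.15 to 0.30, *Sort1* by 0.15 to 0.23, *Ntrk3* by 0.01 to 0.17 and *Bdnf* by 0.06 to 0.19. With an array left out, its genotype keeps 1 array, assumed to vary like the other. Of all probe sets past the threshold, 58.0 percent were higher, and 44.0 percent after median scaling. No paired analysis was possible because the groups share only 1 replicate number. The number of arrays and the lack of detection calls limit what can be said of *Bdnf*, the dimmest of the 5.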
